A study of Mus musculus with 12 samples.

Results

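Lung capillaries are built from a pair of endothelial cell types, and the genes followed here are markers of both. Car4, Ednrb, Apln and Fibin mark the aerocyte, and Gpihbp1, Aplnr and Kit mark the general capillary cell. They are the 7 rows, of 52636 genes counted, whose Ensembl identifiers carry these symbols in GENCODE M21, and they were chosen by name. All 7 passed the filter on low counts that left 21440 genes for testing. They were followed through RNA of lung lymphatic endothelial cells (LECs) to see which blood capillary genes were counted in LEC libraries and how they moved after cigarette smoke (CS).

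Aerocytes are the broad, thin endothelial cells of the alveolus, spread over the gas-exchange surface. General capillary cells line the rest of the alveolar capillary bed, take part in control of vessel tone, and act as progenitors for capillary cells in repair. Several markers of both are parts of signalling pairs: apelin, encoded by Apln in the aerocyte, is the ligand of the apelin receptor, encoded by Aplnr in the general capillary cell. LECs line the lymphatic vessels, and their identity is held by the transcription factor gene Prox1, whose regulatory sequence drives the reporter of these mice.

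Cells were sorted from lungs of Prox1-EGFP mice of both sexes as DAPI negative, Lineage and EPCAM negative, CD31 positive and EGFP positive cells, after an injection of labelled isolectin. CD31 is also carried by blood endothelium, so of the gates only the EGFP reporter separates LECs from it. The 12 libraries fall into acute CS (n = 2) and chronic CS (n = 5), with controls of the same age kept in room air (RA), acute RA (n = 2) and chronic RA (n = 3). Smoke was given to the whole body on 5 days a week, for 8 weeks in acute CS and for at least 24 weeks in chronic CS, from 6 weeks of age. The labels give 8wk as the age of the acute groups and call the chronic groups aged, and since 8 weeks of smoke cannot end at that age, the lengths of exposure used here are those of the study's methods. Acute libraries are pools of 2 to 5 mice of a condition and chronic libraries were not pooled, so the spread between acute libraries is one between pools, whose mice are not named in the labels. The acute groups hold a single library of each sex (F and M), chronic RA holds F, M1 and M2, and chronic CS holds F and M1 to M4.

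Total counts lay between 45237229 and 56998590 in the acute libraries, between 32858543 and 36499108 in chronic RA and between 18821438 and 47494020 in chronic CS, where M3 and M4 were the deep libraries. A floor of 3 counts corresponds to between 0.0507 and 0.158 CPM, and each of the 7 genes lay above it in every library. CPM is a gene's count as a share of the library, scaled by edgeR's TMM factors. The LEC marker Prox1 was counted in every library, at 2358 ± 168 CPM (SD, n = 2) in acute RA, 1152 ± 156 CPM (SD, n = 2) in acute CS, and, after the longer time, 1967 ± 138 CPM in RA (SD, n = 3) and 2048 ± 241 CPM in CS (SD, n = 5). Levels are of bulk RNA, in which more cells of a type and more RNA per cell cannot be told apart.

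The genes lie apart from each other in the genome (GRCm38, GENCODE M21), and no other annotated gene overlaps them. Among the aerocyte genes, Car4 (ENSMUSG00000000805) encodes a carbonic anhydrase anchored to the cell surface and lies on the plus strand at chr11:84957786-84966044. Ednrb (ENSMUSG00000022122), the endothelin receptor type B gene, lies on the minus strand at chr14:103814625-103844402. Apln (ENSMUSG00000037010) lies on the minus strand at chrX:48025146-48034853, and Fibin (ENSMUSG00000074971), which encodes a small secreted protein first described in fin bud development, on the minus strand at chr2:110360917-110363183. Among the general capillary genes, Gpihbp1 (ENSMUSG00000022579) encodes the protein that carries lipoprotein lipase across capillary endothelium and lies on the plus strand at chr15:75596628-75599481. Aplnr (ENSMUSG00000044338) lies on the plus strand at chr2:85136225-85139923, and Kit (ENSMUSG00000005672), the receptor gene for stem cell factor, on the plus strand at chr5:75574916-75656722.

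RefSeq promoter windows (GRCm38.p6) were at hand for 5 of the 7 genes, in 6 windows, since Kit has a pair of listed starts. The 250 bases before each start were searched on both strands for a form of the ETS motif (CAGGAA), of the SOX motif (ACAATG) and of the GATA motif (AGATAA). These are letters bound by factor families that are active in endothelium. These occur in 25.7%, 10.7% and 9.99% of 32851 windows of that length. A single match was found, CAGGAA on the opposite strand of the gene in the Apln window, 112 bases before the start. Only these exact letters were searched, so sites of the same families with other letters were not counted. The windows of Apln (chrX:48034854-48035103, minus strand) and Car4 (chr11:84957504-84957753, plus strand) are shown, since these genes had the highest fold changes after acute CS and their windows lie outside the annotated gene. Capitals mark the match, which reads TTCCTG on the strand printed.
Apln: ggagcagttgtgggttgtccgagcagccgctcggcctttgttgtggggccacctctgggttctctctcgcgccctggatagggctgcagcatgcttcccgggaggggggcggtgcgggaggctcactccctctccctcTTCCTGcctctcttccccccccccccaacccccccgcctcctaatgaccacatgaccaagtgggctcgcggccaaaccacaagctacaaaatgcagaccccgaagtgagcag
Car4: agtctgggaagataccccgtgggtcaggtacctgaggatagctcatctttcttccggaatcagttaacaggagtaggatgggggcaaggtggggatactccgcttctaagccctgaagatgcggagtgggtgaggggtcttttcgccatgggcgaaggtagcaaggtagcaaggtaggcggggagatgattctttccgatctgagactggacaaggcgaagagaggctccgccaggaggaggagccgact
A match is a description of the letters, not evidence of binding.

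In room air all of these blood capillary genes were counted in the LEC libraries, and not at the same level. Compared per length, as FPKM over the 5 RA libraries, Gpihbp1 was highest at 64.7 ± 11.3 FPKM (SD, n = 5), the 96.2nd percentile of genes tested, and its lowest library lay above every library of the next gene. Car4 followed at 19.6 ± 2.09 FPKM and Ednrb at 16.3 ± 1.69 FPKM (SD, n = 5 each), which overlapped, with Car4 the higher in 4 of 5 libraries. Every RA library of Ednrb lay above those of Kit. Kit at 6.67 ± 0.88 FPKM, Fibin at 6.20 ± 3.28 FPKM and Aplnr at 5.89 ± 2.51 FPKM (SD, n = 5 each) could not be put in order beyond their spread. Apln was lowest at 1.83 ± 1.04 FPKM (SD, n = 5), at the 49.3rd percentile, and its range overlapped that of Aplnr although it lay below Aplnr in each of the 5 libraries. The highest gene is thus a general capillary gene and the lowest an aerocyte gene, with members of both groups in between.

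Acute CS. All 7 genes were higher in both acute CS libraries than in both acute RA libraries, and 5 of them, 3 of 4 aerocyte and 2 of 3 general capillary genes, rose past the test. Over all genes tested, 2.75% rose past it. At an unadjusted p under 0.05 there were all 7, against 10.7% of all genes in that direction. Their estimates lay between the 82.0th percentile of all genes, for Gpihbp1, and the 94.9th, for Apln. Called here means an adjusted p under 0.05 in edgeR's quasi-likelihood test fitted to all 12 libraries, with Benjamini-Hochberg adjustment over 21440 genes. With 2 libraries against 2, an exact two-sided permutation test cannot go below 0.333, and 27.4% of all genes had both CS libraries above both RA libraries. The plot of CPM by library shows the separation of the acute groups for every gene.

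**Figure D1:**
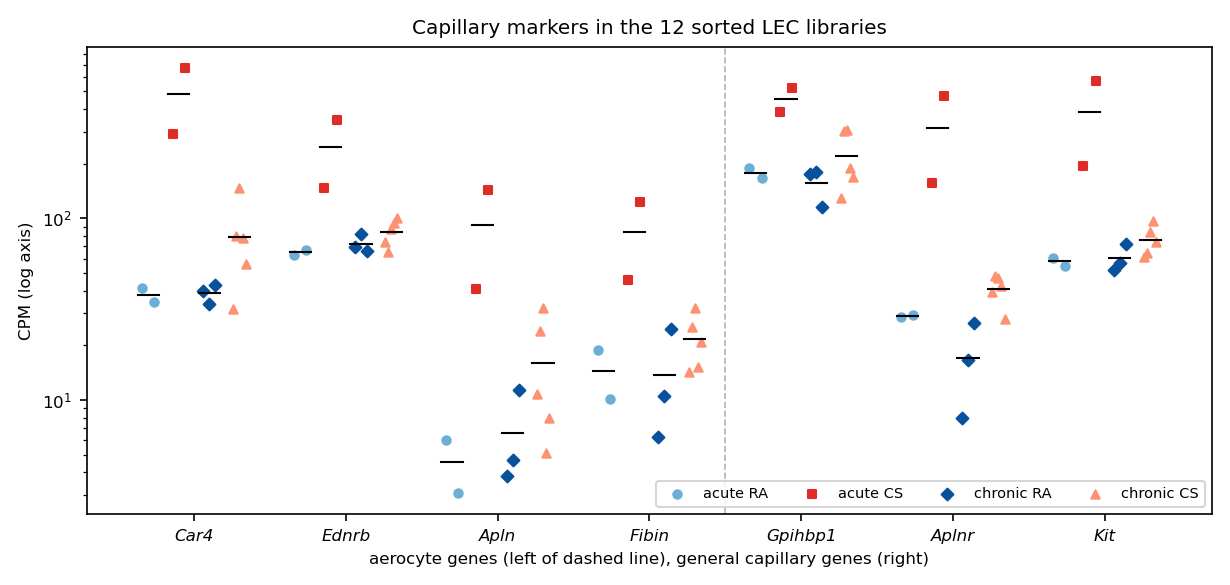
CPM on a log axis of the 4 aerocyte genes (left of the dashed line) and the 3 general capillary genes (right) in the 12 libraries, with a point per library, a shape and colour per group and a black bar at each group's mean. Both acute CS libraries lie above every other library for all 7 genes, and the chronic groups overlap for all but Aplnr.

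Of the aerocyte genes, Car4 was counted at 41.5 CPM in acute RA F and 34.5 CPM in acute RA M, against 669.9 CPM in acute CS F and 291.8 CPM in acute CS M. The estimate was 3.66 on the log2 scale (SE 0.61, 95% interval 2.3 to 5.0), 12.6-fold, with an adjusted p of 0.00978 from edgeR's quasi-likelihood test. Both CS pools of this defining aerocyte marker thus lay far above both RA pools. Ednrb, the endothelin receptor gene, was counted at 62.9 CPM (F) and 67.3 CPM (M) in acute RA and at 345.8 CPM (F) and 145.9 CPM (M) in acute CS. Its estimate was 1.92 on the log2 scale (SE 0.34, 95% interval 1.18 to 2.65; edgeR's adjusted p = 0.0122), a rise of 3.78-fold, the smallest of the 5 that passed. Apln, which encodes the ligand, was counted at 5.998 CPM (F) and 3.08 CPM (M) in acute RA and at 142.6 CPM (F) and 40.8 CPM (M) in acute CS. It had the highest estimate of the 7, 4.33 on the log2 scale (SE 0.99, 95% interval 2.17 to 6.499; edgeR's adjusted p = 0.0361), and also the widest interval. Fibin was counted at 18.8 CPM (F) and 10.2 CPM (M) in acute RA and at 122.3 CPM (F) and 45.8 CPM (M) in acute CS. Its log2 fold change of 2.54 (SE 0.67, 95% interval 1.07 to 4.01) missed the limit, with an edgeR adjusted p of 0.0675.

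Of the general capillary genes, Kit was counted at 60.9 CPM (F) and 54.9 CPM (M) in acute RA and at 571.2 CPM (F) and 193.9 CPM (M) in acute CS. The stem cell factor receptor gene thus rose by an estimate of 2.72 on the log2 scale (SE 0.42, 95% interval 1.81 to 3.64; edgeR's adjusted p = 0.00797), the smallest adjusted p of the 7. Aplnr, which encodes the receptor for apelin, was counted at 28.6 CPM (F) and 29.5 CPM (M) in acute RA and at 470.2 CPM (F) and 156.7 CPM (M) in acute CS. The receptor rose by an estimate of 3.43 on the log2 scale (SE 0.57, 95% interval 2.17 to 4.69; edgeR's adjusted p = 0.01001), so that the ligand and receptor genes of this pair rose in the same libraries. Gpihbp1, the most abundant member in room air, was counted at 188.7 CPM (F) and 167.3 CPM (M) in acute RA and at 524.6 CPM (F) and 385.5 CPM (M) in acute CS. Its log2 fold change of 1.35 (SE 0.39, 95% interval 0.50 to 2.21) was the smallest of the 7 and missed the limit, with an edgeR adjusted p of 0.0920.

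The calls rest on few libraries. Without acute CS F only Kit passed (3.35-fold, edgeR's adjusted p = 0.0252), 0.689% of all genes rose, and the estimates were lower, at 7.69-fold for Car4, 2.24-fold for Ednrb, 8.98-fold for Apln, 3.17-fold for Fibin and 5.40-fold for Aplnr. Without acute RA F and without acute RA M none passed in edgeR, with 0.282% and 0.013% of all genes called higher, while the estimates were 13.9-fold and 11.3-fold for Car4, 29.7-fold and 14.9-fold for Apln and 6.97-fold and 6.14-fold for Kit. Without acute CS M 6 passed, with 2.83% of all genes, and Apln was at 31.4-fold. In each of these fits a group is a lone library assumed to vary like the other groups, and the direction held for all 7 genes. When only the 4 acute libraries were fitted none passed in edgeR (lowest adjusted p = 0.0664), with 7 at an unadjusted p under 0.05 and 0.691% of all genes called higher. None passed either with a block for libraries of the same sex and number (lowest adjusted p = 0.0540 in edgeR). That fit had 7 at an unadjusted p under 0.05 and called 73 of all genes in either direction. In DESeq2 and in edgeR with no filter on low counts all 7 passed, with 8.03% and 2.18% of all genes called higher.

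**Figure D2:**
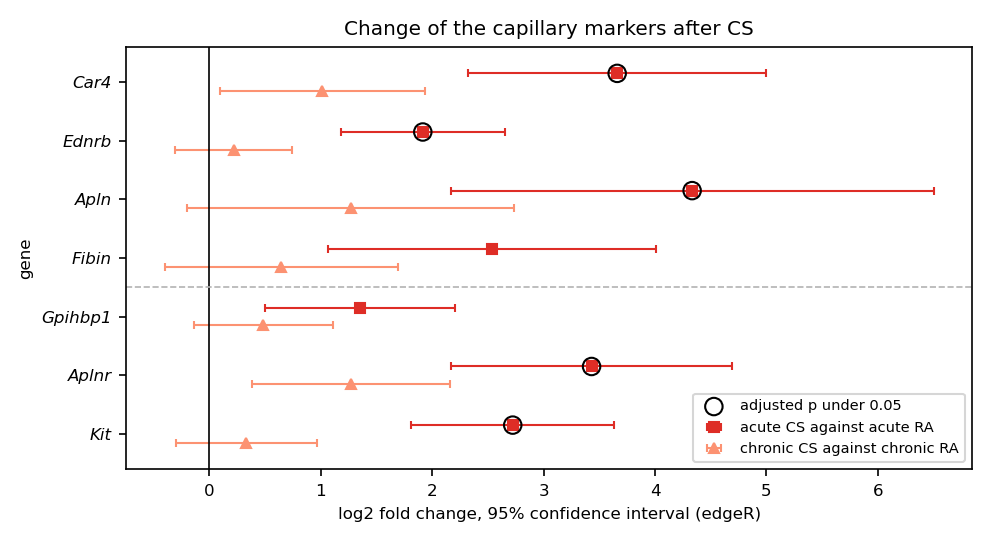
Log2 fold change of each gene after acute CS (squares) and chronic CS (triangles) with its 95% confidence interval from edgeR, aerocyte genes above the dashed line and general capillary genes below it. The 5 circled genes had an adjusted p under 0.05 after acute CS, and after chronic CS no gene did, with estimates from 0.22 to 1.27.

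The acute CS libraries were not alike. Acute CS F held the highest level of all 12 libraries for each of the 7 genes and acute CS M the next highest. The ratio of F to M in acute CS was 2.30 for Car4, 2.37 for Ednrb, 3.498 for Apln and 2.67 for Fibin, and 1.36 for Gpihbp1, 3.0 for Aplnr and 2.95 for Kit. In acute RA the same ratio lay between 0.935 and 1.95. Summed over fixed lists, the ratio of F to M in acute CS was also above 1 for general blood endothelium (1.76), artery (1.82) and leukocyte genes (1.35), and it was highest for alveolar epithelium genes (25.2). It was below 1 for other lists, 0.548 for vein genes, 0.660 for lymphatic genes, 0.619 for mesenchyme genes and 0.895 for alveolar macrophage genes. The excess of F was thus not particular to capillary genes. It rests on a single acute CS library of each sex and was not tested. Sex and pool cannot be told apart here.

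Aerocyte against general capillary genes. The mean log2 FPKM of the 4 aerocyte genes was set against that of the 3 general capillary genes in each library, as a description with no test. The general capillary mean was the higher in all 12 libraries, by between 0.18 and 1.32 on the log2 scale. The difference of aerocyte minus general capillary was -1.11 ± 0.29 (SD, n = 2) in acute RA and -0.50 ± 0.16 (SD, n = 2) in acute CS. In chronic RA it was -0.65 ± 0.26 (SD, n = 3) and in chronic CS -0.63 ± 0.34 (SD, n = 5). The acute groups did not overlap, but both acute CS libraries lay within the range of the chronic RA libraries, from -0.87 to -0.36. The step of 0.61 from acute RA to acute CS was thus smaller than the rise in either mean, since the aerocyte mean in log2 FPKM went from 3.07 (F) and 2.57 (M) to 6.502 (F) and 5.09 (M), and the general capillary mean from 3.98 (F) and 3.89 (M) to 6.89 (F) and 5.70 (M).

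**Figure D3:**
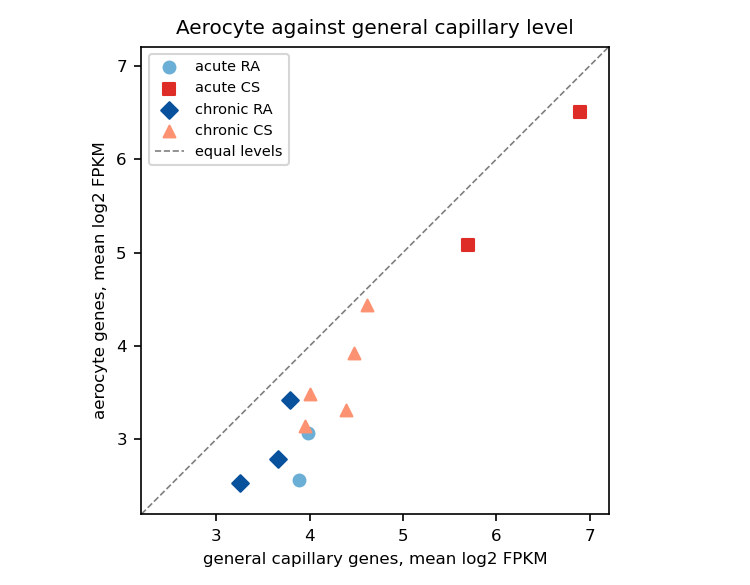
Mean log2 FPKM of the aerocyte genes (vertical axis) against that of the general capillary genes (horizontal axis), a point per library. All 12 libraries lie below the dashed line of equal levels, and the acute CS libraries lie farthest along it, at 5.09 and 6.502 for the aerocyte genes.

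Summed FPKM, in which abundant genes weigh most, gave a wider step. Aerocyte genes made up 34.2% (F) and 32.8% (M) of the summed FPKM of the 7 genes in acute RA and 56.8% (F) and 50.1% (M) in acute CS. The sum of the aerocyte genes went from 42.4 ± 5.14 to 368 ± 216 FPKM (SD, n = 2 each) and that of the general capillary genes from 84.0 ± 6.22 to 306 ± 128 FPKM (SD, n = 2 each). Car4 and Gpihbp1 lead these sums, and their fold changes were unlike. In chronic RA the aerocyte share was 46.1% (F), 34.5% (M1) and 34.4% (M2), and in chronic CS it lay between 35.1% and 45.5%, within the range of the controls.

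Single pairs of an aerocyte and a general capillary gene moved both ways. Of the 12 pairs, the log2 CPM ratio of aerocyte to general capillary gene was higher after acute CS in 8 and lower in the other 4. The CS libraries lay apart from the RA libraries in 9 pairs, 6 of those that were higher and 3 of those that were lower. With 2 libraries against 2 this is common, as 27.4% of all single genes lay apart upward. The pairs share 7 genes, and the share over all pairs of genes was not computed. After chronic CS the ratio was higher in 6 of the 12 pairs and the groups lay apart in 0. The shift after acute CS ran from -1.43 for Ednrb against Aplnr to 2.79 for Apln against Gpihbp1, with a median of 0.68. Ednrb thus lost to Aplnr and Kit, and Apln gained on all 3 general capillary genes. Across the 12 libraries the profiles of the genes did not fall into their marker groups: the root mean square difference between centred log2 CPM profiles had a median of 0.678 over the 12 pairs between the groups, 0.686 over the 6 pairs of aerocyte genes and 0.667 over the 3 pairs of general capillary genes. After acute CS the markers of both capillary types were therefore higher together, with a gene-to-gene range wider than the step between the groups.

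Chronic CS. After 24 weeks or more, none of the 7 genes passed the test, and 0% of all genes did. All 7 estimates were above 0, and at an unadjusted p under 0.05 there were 2 of the 7, Car4 and Aplnr, against 5.57% of all genes in that direction. In DESeq2, 1 of the 7 passed, Aplnr with an adjusted p of 0.0329, in a tool that called 1.99% of the genes it tested as higher in this comparison. Aplnr was the only member whose groups did not overlap, as was the case for 3.92% of all genes in that direction. The receptor gene was counted at 26.4 CPM (F), 7.98 CPM (M1) and 16.5 CPM (M2) in chronic RA and at 39.5 CPM (F), 48.0 CPM (M1), 47.2 CPM (M2), 42.2 CPM (M3) and 27.8 CPM (M4) in chronic CS. The lowest CS library, M4, lay close above the highest control, F. Its estimate was 1.27 on the log2 scale (SE 0.41, 95% interval 0.38 to 2.16; edgeR's adjusted p = 0.333), and the exact two-sided permutation p was 0.0357, the smallest that 5 libraries against 3 allow.

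Car4 was counted at 43.0 CPM (F), 39.8 CPM (M1) and 33.9 CPM (M2) in chronic RA and at 31.7 CPM (F), 80.2 CPM (M1), 146.3 CPM (M2), 78.2 CPM (M3) and 56.3 CPM (M4) in chronic CS. Chronic CS F lay below all controls and the 4 male CS libraries above them. Its estimate on the log2 scale was 1.01 (SE 0.42, 95% interval 0.10 to 1.93; edgeR's adjusted p = 0.427, exact permutation p = 0.143). Apln, the ligand gene, was counted at 11.3 CPM (F), 3.83 CPM (M1) and 4.65 CPM (M2) in chronic RA and at 10.8 CPM (F), 23.99 CPM (M1), 31.9 CPM (M2), 5.12 CPM (M3) and 7.91 CPM (M4) in chronic CS. Only M1 and M2 exceeded the highest control, and the estimate was 1.27 on the log2 scale (SE 0.67, 95% interval -0.20 to 2.74; edgeR's adjusted p = 0.511). With chronic CS M3 and M4 alone against the controls it was -0.017. Fibin lay between 6.25 and 24.5 CPM in chronic RA and between 14.3 and 32.3 CPM in chronic CS, with a log2 fold change of 0.65 (SE 0.48). Without chronic RA F, the highest control for both genes, the estimates were higher, 1.37 for Fibin (edgeR's adjusted p = 0.682) and 1.91 for Apln (adjusted p = 0.701). For Ednrb the ranges were 66.3 to 81.7 CPM and 65.4 to 100.5 CPM, and its log2 fold change of 0.22 (95% interval -0.31 to 0.74) was the smallest of the 7.

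Gpihbp1 was counted between 115.5 and 179.6 CPM in chronic RA and at 128.6 CPM (F), 301.8 CPM (M1), 308.1 CPM (M2), 190.2 CPM (M3) and 169.8 CPM (M4) in chronic CS, a log2 fold change of 0.49 (95% interval -0.14 to 1.11). Kit was counted between 52.2 and 72.3 CPM in chronic RA and between 61.3 and 96.6 CPM in chronic CS, a log2 fold change of 0.33 (95% interval -0.30 to 0.97). Chronic CS M1 and M2 were the highest chronic CS libraries for Car4, Apln, Fibin, Gpihbp1 and Aplnr, while M3 was highest for Kit and M4 for Ednrb. M1, M2 and F are the shallower libraries of the group and M3 and M4 the deeper ones. F, the shallowest, was the lowest chronic CS library for Car4, Fibin, Gpihbp1 and Kit. The part of depth in these levels was not tested.

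Room air controls and the difference between exposures. Between the chronic RA and the acute RA libraries none of the 7 genes passed the test, nor did any gene (0%), and none of the 7 had an unadjusted p under 0.05, against 7.01% of all genes. The greatest shifts were -0.78 on the log2 scale for Aplnr (adjusted p = 0.766 in edgeR) and 0.54 for Apln. The acute CS effect minus the chronic CS effect was above 0 for all 7 genes, and none passed the adjusted limit in edgeR, against 0.401% of all genes in that direction. At an unadjusted p under 0.05 there were 6 of the 7, all but Gpihbp1, against 8.17% of all genes in that direction. Kit had the smallest adjusted p, 0.0657, for a difference of 2.39 on the log2 scale, followed by Ednrb with 0.101 for a difference of 1.70 and Car4 with 0.132 for a difference of 2.65. DESeq2 called 4 of the 7 in this comparison, Car4, Ednrb, Aplnr and Kit, against 3.88% of the genes it tested, in that direction. In edgeR, Kit passed with no filter on low counts (adjusted p = 0.0255), Ednrb and Kit without acute CS M, and Car4 without chronic CS M2 (adjusted p = 0.0470). Without acute CS F none passed in edgeR and 3 had an unadjusted p under 0.05, and the differences were smaller, at 1.41 for Kit, 0.95 for Ednrb and 1.93 for Car4 on the log2 scale.

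Other capillary genes and signalling partners. In counts over lists, rose and fell mean an adjusted p under 0.05 in edgeR's fit to all 12 libraries. By this measure 2.75% of all genes rose and 0.723% fell after acute CS. The alternative fits were read for the 7 members only. Of 8 other aerocyte genes, 5 rose after acute CS and none fell, with a median log2 fold change of 2.07, against 0.04 over all genes tested. Nrp1, a co-receptor for VEGF and semaphorins, went from 36.4 ± 1.95 to 593 ± 314 CPM (log2 fold change 4.03, edgeR's adjusted p = 0.00603). The membrane protein gene Emp2 went from 62.6 ± 3.78 to 620 ± 496 CPM (3.31, adjusted p = 0.0188), and Prx from 30.2 ± 6.95 to 282 ± 233 CPM (3.22, adjusted p = 0.0338; SD, n = 2 libraries in each group). The transcription factor gene Tbx2 and Igfbp7 also rose. Kdr, the VEGF receptor gene that LECs also express at a high level, was counted at 2398 ± 176 CPM in acute RA and 1832 ± 418 CPM in acute CS (log2 fold change -0.39, adjusted p = 0.554), and Chst1 and Sirpa did not pass either.

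Of 9 other general capillary genes, 7 rose and none fell, with a median log2 fold change of 2.01. Glp1r, the incretin receptor gene, rose by an estimate of 3.47 on the log2 scale (edgeR's adjusted p = 0.01001), Lpl 3.44 (adjusted p = 0.0125) and the semaphorin gene Sema3c 3.43 (adjusted p = 0.0373). Cd93, Ptprb, Tek and Itga1 also rose, and Plvap and Clec1a did not pass. After chronic CS none of the genes of either list passed, with medians of 0.43 and 0.58 against 0.01 over all genes. The medians of the other aerocyte and other general capillary genes after acute CS were close together, as those of the members were, at 3.10 and 2.72.

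Of the 10 genes listed as partners of the members, 8 passed the filter and 3 of these rose after acute CS. Kitl, which encodes stem cell factor, the ligand of the Kit receptor, went from 12.01 ± 2.41 to 168 ± 115 CPM (log2 fold change 3.805, edgeR's adjusted p = 0.00918). Edn1, the endothelin gene whose product binds the Ednrb receptor, went from 5.06 ± 1.40 to 49.5 ± 23.3 CPM (3.29, adjusted p = 0.0293). Lpl is also one of the other general capillary genes that rose, so it is counted in both lists. The part of other cell types in its level was not tested. Its enzyme is carried by the Gpihbp1 protein, and the gene went from 35.8 ± 6.49 to 388 ± 67.8 CPM (SD, n = 2 libraries in each group). So for each of the apelin, stem cell factor and endothelin pairs, a ligand gene rose in the same comparison as the receptor gene, which is a member. Ednra, the other endothelin receptor gene, was at 3.27 CPM on average in acute RA and 16.9 CPM in acute CS (log2 fold change 2.37, adjusted p = 0.151), and Ece1, Lmf1 and Angptl4 had estimates of -0.09, 0.09 and 0.30. Apela, the other apelin receptor ligand gene, had no count in any of the 12 libraries. After chronic CS none of the 8 passed, and Angptl4, which inhibits lipoprotein lipase, had the estimate farthest below 0, -1.16 (adjusted p = 0.260).

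Markers of other cells in the same libraries. Some members are known from other cells too, Car4 from alveolar macrophages, Kit from mast cells and Fibin from fibroblasts, so lists for these and for other lung cells were read beside them. Of 10 general blood endothelium genes, 8 rose after acute CS, where 2.75% of all genes rose. Their summed level was 1283 to 1362 CPM in acute RA and 3533 to 6201 CPM in acute CS. Of 5 vein genes, 3 rose, among them Vwf from 46.1 ± 9.97 to 1452 ± 533 CPM (SD, n = 2 each, log2 fold change 4.98, edgeR's adjusted p = 0.00258). Of 6 artery genes 1 rose, Hey1, and all 6 had estimates above 0, with a median of 1.46. The artery sum went from 227 to 251 CPM in acute RA to 436 to 791 CPM in acute CS. Of 8 lymphatic genes, 3 fell, Prox1, Flt4 and Nrp2, where 0.723% of all genes fell. Lyve1, a receptor gene of lymphatic endothelium, had an estimate above 0, from 489 to 777 CPM on average (log2 fold change 0.67, edgeR's adjusted p = 0.307). The summed level went from 15254 to 17066 CPM in acute RA to 6485 to 9822 CPM in acute CS. The rise in capillary genes thus stood beside higher sums of venous, arterial and general blood endothelium genes and a lower lymphatic sum.

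Of 9 alveolar macrophage genes, 3 rose and 1 fell, with 8 estimates above 0 and a median log2 fold change of 4.50. The gene that fell was Mrc1, which LECs also express, at 647 CPM on average in acute RA and 338 CPM in acute CS, and it made up most of the list's sum of 767 to 840 CPM in acute RA. In acute CS the sum was 2225 to 2487 CPM, led by the lectin gene Chil3, which went from 58.9 ± 39.2 to 1334 ± 28.8 CPM (SD, n = 2 each; edgeR's adjusted p = 0.0628). Of 4 leukocyte genes all rose, from a sum of 68.0 to 76.7 CPM to one of 869 to 1173 CPM, and of 8 mesenchyme genes 5 rose, from 125 to 176 CPM to 545 to 881 CPM. The sort selected against cells that carry Lineage markers or EPCAM, and how fully it did so was not tested. The part of macrophages, other leukocytes and mesenchyme in the levels of Car4 and Fibin was not tested either. Of 7 mast cell genes 4 passed the filter and none was called, the summed level was 0.0946 to 1.49 CPM in acute RA and 3.796 to 6.05 CPM in acute CS, and the tryptase gene Tpsab1 had no count in any library. The alveolar epithelium sum differed most between the acute CS libraries, at 6396 CPM in F and 254 CPM in M. The acute RA libraries lay between, at 748 CPM (F) and 1044 CPM (M). All 8 genes of the list had estimates above 0, and 1 rose. Emp2, which alveolar epithelium expresses too, ranged from 270 to 971 CPM over the acute CS libraries, and the part of epithelium in its level was not tested.

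**Figure D4:**
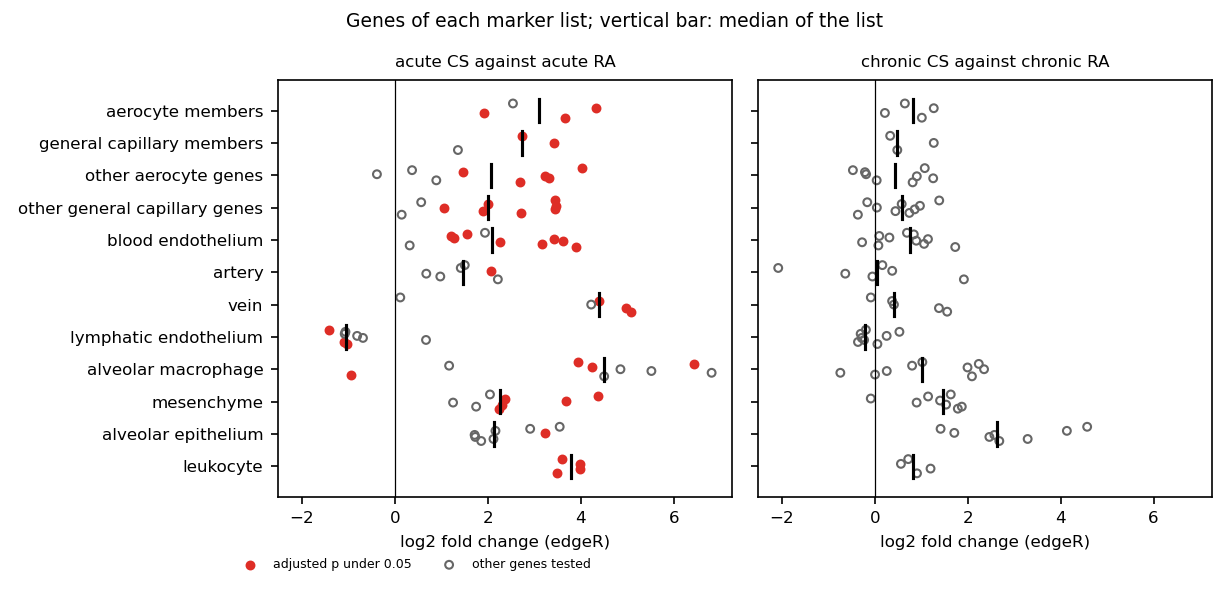
Log2 fold change from edgeR of the genes of each list after acute CS (left) and chronic CS (right), a point per gene, with filled points for an adjusted p under 0.05 and a vertical bar at the list's median. After acute CS the medians of the aerocyte and general capillary members are 3.10 and 2.72 and that of the lymphatic list is -1.05. After chronic CS no point is filled.

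After chronic CS none of the genes of these lists passed the test. The median log2 fold change was 0.77 for general blood endothelium, 0.41 for vein, 0.06 for artery, 1.47 for mesenchyme, 2.63 for alveolar epithelium, 1.03 for alveolar macrophage and 0.82 for leukocyte genes, against 0.83 for the aerocyte and 0.49 for the general capillary members. The lymphatic median was -0.21.

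The genes most like the members were sought among 12422 other genes whose average log2 CPM was 1 or more, by the root mean square difference of centred log2 CPM over the 12 libraries. For the aerocyte mean these were Adgre5 (0.221), Hlx (0.226), Bmp6 (0.245), Tmem100 (0.273) and Fmo1 (0.296), where the aerocyte mean itself varied with a root mean square of 1.11. For the general capillary mean they were Adgre5 (0.203), Hlx (0.223), Cd93 (0.241), Ptprg (0.243) and Cd36 (0.244), against 0.956 for that mean. Adgre5 and Hlx led both lists, so the nearest profiles did not tell the marker groups apart. All 8 of these genes rose after acute CS, with log2 fold changes from 2.04 for Ptprg to 3.43 for Tmem100, which follows from how they were chosen.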

How the data were processed

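RNA of lung LECs was sequenced in 12 libraries (SMART-Seq v4, polyadenylated RNA, not marked for strand). The authors deposited raw read counts for each Ensembl gene, made with FastQC 0.11.9, Skewer, Minion and STAR in its GeneCounts mode on GRCm38, without normalization. The annotation release is not given in the sources used here. The labels gave each library's group, sex and number, and the study's methods the lengths of exposure. The 4 male chronic CS libraries are numbered as in their titles; the names of their count columns carry other numbers.

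Counts were fitted in R 4.3.3 with edgeR 4.0.16 (TMM factors, filterByExpr, quasi-likelihood F-test, all 12 libraries by group), with Benjamini-Hochberg adjustment over 21440 genes and a limit of 0.05. FPKM was computed from TMM-scaled counts and the union of exons in GENCODE M21, and averaged on the log2 scale with 0.01 added. A prior count of 2 was added for log2 CPM of single libraries, compared with exact two-sided permutation tests in scipy 1.17.1. The fit was tested on counts simulated with 200 changed genes on a baseline common to all libraries. Such counts hold no shift in cell mixture between libraries, so that test does not bear on such shifts. DESeq2 1.42.0 and the other alternatives are given in the closing section. P-values measure the spread between these libraries, and floors cover counting error only.

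The genes named are the 7 markers, the genes of the marker and partner lists, and for each marker group the 5 genes most like its mean. The members, lists and tests were chosen with earlier results of these data known, and no count over a list is independent support. Compared replicates all differed by more than sampling noise, so none were merged.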

Additional observations from a re-analysis of the deposited data

How the results depend on the processing

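The count of the 7 genes called after acute CS was 5, and 5 with library sizes in place of TMM, with sex as a covariate or with robust estimation. It was 7 in DESeq2 and 7 with no filter on low counts. It was 0 when only the groups compared were fitted (adjusted p from 0.0664 to 0.129) and 0 with a replicate block of libraries of the same sex and number (adjusted p from 0.0540 to 0.180), in edgeR, with 7 at an unadjusted p under 0.05 in both. The labels do not say whether libraries of the same sex and number belong together. Their deviations from the group means correlated by 0.069 in the acute and by -0.042 to 0.034 in the chronic comparison. With 2 libraries in a group deviations mirror each other, so the acute value is a single one and pairing is not settled. Leaving out a library gave 0 to 6. In all 11 alternatives no acute estimate changed sign.

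After chronic CS the count was 0 in edgeR throughout, the block included, and 1 in DESeq2 (Aplnr). The Apln estimate was -0.017 with chronic CS M3 and M4 only. Between room air controls it was 0 throughout. For the difference of the effects it was 0, but 4 in DESeq2, 1 with no filter (Kit) and 0 to 2 without a library: Ednrb and Kit passed without acute CS M, and Car4 without chronic CS M2. With the block, added after seeing the data, the difference count was 0 (lowest adjusted p 0.198). The room air comparison lies between blocks and could not be fitted with them. The causes were not tested.

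The change in aerocyte minus general capillary level after acute CS was 0.61 and went to 1.19 with summed FPKM, where abundant genes weigh most by construction. It was 0.43 without Car4 and 0.79 without Fibin, and 0.41 to 0.82 without a library. After chronic CS it was 0.02, -0.17 without Kit, 0.17 with summed FPKM and -0.09 to 0.17 without a library, so its sign is not settled.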
